A study of Mus musculus with 16 samples.

Results

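Dimethylation and trimethylation of lysine 36 on histone H3 (H3K36me2 and H3K36me3) were compared with each other within Setd5+/- and within wild-type neural stem cells. The regions compared were islands, stretches enriched in chromatin immunoprecipitation and sequencing (ChIP-seq), on the autosomes other than chromosomes 1, 4 and 15. These 16 autosomes held 19539 of the 26574 islands in the 4 H3K36 lists, and the 13 island lists of the series held 213103 islands over all marks and chromosomes. The Setd5+/- cells had 1736 H3K36me2 and 7396 H3K36me3 islands there, and the wild-type cells had 3643 and 6764. Gene results cover 13356 protein-coding genes of at least 5 kb on these autosomes, out of 21900 protein-coding genes of all lengths in the annotation.

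The study profiled 6 histone marks in Setd5+/- and wild-type cells, and V5-tagged SETD5 in wild-type cells, to ask how the loss of a copy of Setd5 changes chromatin. Setd5+/- cells carry 1 disrupted copy of the gene, whose kind is not stated in the labels, and wild-type cells carry none. Both are cultures of stem cells from the cortex of mouse embryos at E14.5, grown as neurospheres with the growth factors bFGF and EGF and then plated on Matrigel before fixation. The number of embryos or cultures behind each library is not stated. Each mark has 1 library per genotype, so no difference between genotypes has a replicate check and no p-value is given.

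SETD2 is the main enzyme that adds the third methyl group to H3K36, and it travels with elongating RNA polymerase II, so that H3K36me3 lies over the bodies of transcribed genes. The NSD enzymes and ASH1L stop at H3K36me2, which is found in broad stretches between genes and in the first part of gene bodies. Both forms hinder the Polycomb enzyme that adds H3K27me3, and a histone tail holds a single form at a time, so both marks on the same sequence come from different tails, alleles or cells. SETD5 resembles these enzymes in its SET domain, and the series title names it a methyltransferase of this residue.

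Reads inside the islands of the 16 autosomes numbered 615109 for Setd5+/- H3K36me2 and 2532573 for Setd5+/- H3K36me3, against 853368 and 1986887 in wild type. The Setd5+/- H3K36me2 library stood apart, with only 25.4% of its island reads on these autosomes, against 79.5% in wild type. The chromosomes left out held the rest. The total depth of the libraries is unknown. Of the stem cell and radial glia markers, 6 of 10 that could be measured carried H3K36me3 over at least 25% of the gene in Setd5+/- cells and 5 of 10 did in wild type, among them Vim, Pax6 and Notch1, beside 36.7% and 36.3% of all genes. Neuronal markers did in 0 of 10 in Setd5+/- cells and 1 of 10 in wild type, and astrocyte and oligodendrocyte markers in 1 of 8 and 3 of 8. None of 4 microglia and blood markers did in either genotype, and endothelial and mesenchymal markers numbered 0 of 8 in Setd5+/- cells and 1 of 8 in wild type. Setd5 itself (chr6:113077262-113153432) had 0% H3K36me2 and 73.3% H3K36me3 in Setd5+/- cells, against 24.2% and 98.5% in wild type. The lists hold neither transcript nor allele, so this does not verify the genotype.

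The promoters below belong to genes of different classes named in the results. They are the 250 bases before the start that the RefSeq promoter table gives, written 5′ to 3′ on the gene's strand from GRCm38.p6, with every CG dinucleotide in capitals. Cdkal1 and Sema6d carried H3K36me2 alone in both genotypes. Rfx3 carried H3K36me3 alone in Setd5+/- cells and H3K36me2 alone in wild type. The start in the table lies at the boundary of the annotated gene for Zhx3, and 10, 26, 74 and 3503 bp inside it for Cdkal1, Sema6d, Tcf12 and Rfx3, so that the last bases of these 4 sequences, or all of them for Rfx3, lie inside the annotated gene. Tcf12 and Zhx3 carried both marks in both genotypes.
Cdkal1 (chr13:29855674-29855923, minus strand): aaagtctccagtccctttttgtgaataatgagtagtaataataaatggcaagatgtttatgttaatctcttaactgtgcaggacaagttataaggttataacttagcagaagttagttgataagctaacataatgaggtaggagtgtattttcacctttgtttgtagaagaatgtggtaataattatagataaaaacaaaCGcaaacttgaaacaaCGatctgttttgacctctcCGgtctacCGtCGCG
Sema6d (chr2:124089719-124089968, plus strand): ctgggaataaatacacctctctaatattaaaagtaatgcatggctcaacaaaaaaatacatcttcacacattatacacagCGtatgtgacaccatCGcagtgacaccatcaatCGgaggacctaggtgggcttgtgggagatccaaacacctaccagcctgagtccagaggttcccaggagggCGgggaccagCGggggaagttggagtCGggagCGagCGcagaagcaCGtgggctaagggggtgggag
Rfx3 (chr19:28011167-28011416, minus strand): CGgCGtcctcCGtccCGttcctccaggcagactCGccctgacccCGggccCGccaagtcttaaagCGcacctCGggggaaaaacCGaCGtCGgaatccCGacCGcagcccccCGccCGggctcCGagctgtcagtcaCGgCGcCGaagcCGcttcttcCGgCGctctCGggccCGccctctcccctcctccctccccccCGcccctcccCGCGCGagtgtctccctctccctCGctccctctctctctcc
Tcf12 (chr9:72111820-72112069, minus strand): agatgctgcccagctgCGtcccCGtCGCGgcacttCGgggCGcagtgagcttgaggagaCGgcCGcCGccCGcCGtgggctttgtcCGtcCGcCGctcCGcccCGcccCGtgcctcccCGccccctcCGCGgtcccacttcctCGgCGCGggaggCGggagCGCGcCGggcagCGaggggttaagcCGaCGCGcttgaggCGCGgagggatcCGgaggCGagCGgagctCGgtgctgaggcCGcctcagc
Zhx3 (chr2:160872991-160873240, minus strand): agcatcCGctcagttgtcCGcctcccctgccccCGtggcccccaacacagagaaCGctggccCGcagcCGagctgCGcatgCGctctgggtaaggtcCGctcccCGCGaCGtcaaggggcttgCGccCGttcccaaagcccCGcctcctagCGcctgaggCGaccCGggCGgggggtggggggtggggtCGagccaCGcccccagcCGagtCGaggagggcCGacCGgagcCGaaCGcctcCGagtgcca
The promoters of Cdkal1 and Sema6d hold 6 and 9 CG dinucleotides, those of Rfx3, Tcf12 and Zhx3 hold 30, 38 and 28. The observed over expected CG ratio, which corrects for the C and G content, was 0.833 for Cdkal1, 0.536 for Sema6d, 1.05 for Rfx3, 1.03 for Tcf12 and 0.831 for Zhx3, so by this measure Cdkal1 did not lie below Zhx3. Among all 32851 promoter entries of this length 92.1% hold the letters CG, which read the same on both strands, with a median of 6. Over the genes with an entry, the ratio had a median of 0.631. Its median in Setd5+/- cells was 0.803 for 22 genes with both marks, 0.791 for H3K36me3 alone and 0.456 for neither. In wild type it was 0.484 for 86 genes with H3K36me2 alone, 0.838 for 49 genes with both marks, 0.794 for H3K36me3 alone and 0.454 for neither. Genes with H3K36me2 alone thus had a median near that of unmarked genes in wild type, and genes with both marks one near that of H3K36me3 genes. For H3K36me2 alone in Setd5+/- cells only 48 of 63 genes had an entry, so the comparison is void there. The entries used lie on 15 of the 16 autosomes.

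H3K36me2 and H3K36me3 islands rarely met. Of the 1736 H3K36me2 islands in Setd5+/- cells 92 (5.3%) overlapped an H3K36me3 island by at least 1 bp (95% Wilson interval 4.34 to 6.46), and in wild type 247 of 3643 did, or 6.78% (6.01 to 7.64). These intervals overlap and cover counting error only. A further 70 islands (4.03%) in Setd5+/- cells and 183 (5.02%) in wild type lay within 10 kb of an H3K36me3 island without overlap. All remaining H3K36me2 islands, 90.7% in Setd5+/- cells and 88.2% in wild type, lay farther away. With the genotypes cut to equal covered length, by keeping the densest wild-type islands of each mark, the overlapping shares were 5.30% and 5.70%. Among islands at or above the median read density of their list the order turned, with 4.46% in Setd5+/- cells and 2.17% in wild type. That median was taken over the whole list, with the chromosomes left out included. For H3K36me2 it was 19.12 reads per kb in Setd5+/- cells, against 17.94 on the 16 autosomes, and 15.52 against 15.5 in wild type. The cut was therefore stricter for Setd5+/- cells.

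Seen from the other mark, 101 of 7396 H3K36me3 islands, 1.37% of them (1.13 to 1.66), overlapped H3K36me2 in Setd5+/- cells. In wild type 254 of 6764 did, 3.76% (3.33 to 4.24). These intervals do not overlap, but they cover counting error only, treat islands as independent and rest on 1 library per genotype. H3K36me2 also covered less sequence in Setd5+/- cells, 33.6 Mb against 55.0 Mb, which is 1.70% and 2.79% of the 1974 Mb span. At equal covered length the wild-type share was 2.12%. H3K36me3 covered 148.2 Mb in Setd5+/- cells and 151.9 Mb in wild type.

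**Figure D1:**
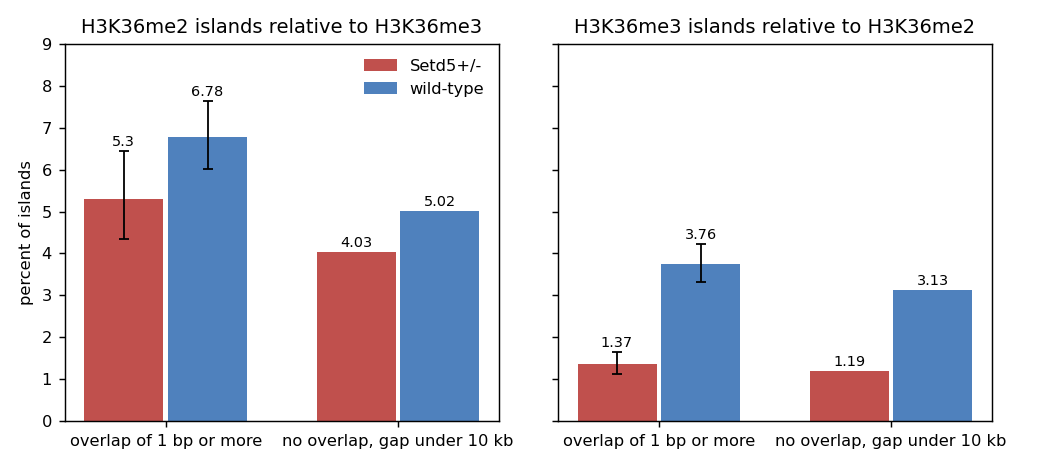
Percent of H3K36me2 islands (left) and H3K36me3 islands (right) that overlap the other mark or lie under 10 kb from it, in Setd5+/- (red) and wild-type (blue) cells, with 95% Wilson intervals on the overlap. Every bar is under 7% and the H3K36me3 bars of Setd5+/- cells, 1.37% and 1.19%, are the lowest.

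The islands that did not overlap were usually far apart. Their median distance from an H3K36me2 island to the nearest H3K36me3 island was 212.4 kb in Setd5+/- cells and 224.0 kb in wild type. Islands that touched end to end numbered 2 in Setd5+/- cells and 13 in wild type. On the 800 bp grid of the lists the widest gap counted as adjacent was 9600 bp and the narrowest not counted was 10400 bp. H3K36me2 islands had nearly the same read density wherever they lay, with medians of 17.6, 18.02 and 17.9 reads per kb for overlapping, adjacent and distant islands in Setd5+/- cells, and 15.3, 15.5 and 15.5 in wild type.

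The overlap varied between chromosomes. The share of H3K36me2 islands meeting H3K36me3 ran from 0% to 15.2% over the 16 autosomes in Setd5+/- cells and from 3.20% to 10.6% in wild type. It was lower in Setd5+/- cells on 11 autosomes and higher on 5. Chromosome 18 had no overlapping island among 106 in Setd5+/- cells, against 14 of 227 in wild type. Chromosome 7 had the highest share in Setd5+/- cells, 10 of 66 islands, against 13 of 139 in wild type. The length shared by the marks was lower in Setd5+/- cells on 14 of the 16 autosomes, with chromosomes 13 and 16 the exceptions.

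Where the marks met, they met mostly inside genes, as H3K36me3 itself lies mostly there. Sequence under both marks came to 1.11 Mb in Setd5+/- cells and 2.09 Mb in wild type. It made up 3.31% and 3.80% of the H3K36me2 length, whereas H3K36me3 covered 7.51% and 7.69% of the whole span. Protein-coding genes held 85.8% of the shared sequence in Setd5+/- cells and 96.2% in wild type, against 40.7% of the span. H3K36me2 as a whole was 36.01% genic in Setd5+/- cells and 43.0% genic in wild type, near that of the span, and H3K36me3 was 93.5% and 93.0% genic. With all annotated genes counted in place of protein-coding ones, H3K36me2 was 47.9% and 52.4% genic and H3K36me3 94.7% and 94.2%. The share of the span in all annotated genes is not given. The genic share of H3K36me2 islands followed their distance from H3K36me3. It was 81.4% for overlapping, 53.0% for adjacent and 32.1% for distant islands in Setd5+/- cells, and 91.1%, 64.8% and 37.9% in wild type. Since H3K36me3 lies mostly in genes, the sequence shared with it will be mostly genic. An H3K36me2 island that meets it will in most cases lie at least partly in a gene. Beside H3K36me3 as a whole, the shared sequence was less genic in Setd5+/- cells, 85.8% against 93.5%, and more genic in wild type, 96.2% against 93.0%. Much of the non-genic part of the 1.11 Mb in Setd5+/- cells lay at a single locus on chromosome 10. Stretches of 36.8 and 35.2 kb there lay on no protein-coding gene, and the genic share without them was not computed.

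More H3K36me2 islands than not touched no protein-coding gene, called gene-free here, with other kinds of gene not counted. They numbered 1040 of 1736 (59.9%) in Setd5+/- cells and 1965 of 3643 (53.9%) in wild type, while gene-free H3K36me3 islands numbered 99 (1.34%) and 97 (1.43%). The widest gene-free H3K36me2 island of Setd5+/- cells was 90.4 kb long on chromosome 10 (chr10:37353601-37444000), and 74.3% of it was also under H3K36me2 in wild type. The next were 84.8 kb (chr13:110910401-110995200), 73.6 kb (chr12:39907201-39980800), 61.6 kb (chr13:83854401-83916000) and 59.2 kb (chr13:26839201-26898400). In wild type the widest was 64.0 kb (chr13:26548801-26612800), of which 72.5% was under H3K36me2 in Setd5+/- cells. It was followed by islands of 62.4 kb (chr17:9842401-9904800), 56.0 kb (chr10:37868001-37924000), 55.2 kb (chr12:46346401-46401600) and 51.2 kb (chr18:55484801-55536000). Over these 10 islands the share covered in the other genotype ran from 28.1% to 74.3%.

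The stretches under both marks were short, with a median of 7200 bp over 104 stretches in Setd5+/- cells and 6400 bp over 265 in wild type. The longest in Setd5+/- cells was 128.8 kb in Npas3 (chr12:53904001-54032800), a transcription factor gene of the developing brain. The second, 60 kb in Btbd9 (chr17:30469601-30529600), was matched by a stretch of 56.0 kb there in wild type (chr17:30473601-30529600). The longest wild-type stretch, 59.2 kb, lay over the end of Btbd9 and over Glo1, which encodes the enzyme that clears methylglyoxal (chr17:30556801-30616000). The remaining stretches among the 5 longest in Setd5+/- cells were 36.8, 35.2 and 28.8 kb long on chromosome 10 near Raet1d, a ligand gene of the NKG2D receptor. That of 28.8 kb lay on Raet1d, and those of 36.8 and 35.2 kb lay on no protein-coding gene. In wild type they included stretches of 24.8 and 24.0 kb in Npas3.

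The regions of Btbd9 with Glo1 and of Raet1d carried both marks in both genotypes, with H3K36me2 at raised density. Densities are set against the median of the whole list, with the chromosomes left out included. For H3K36me2 this was 19.12 reads per kb in Setd5+/- cells and 15.52 in wild type, against 17.94 and 15.5 on the 16 autosomes. Against the latter the Setd5+/- H3K36me2 ratios would be higher. Around Btbd9 and Glo1 the H3K36me2 density was 1.36 times the median of its list in Setd5+/- cells and 1.35 times in wild type, and that of H3K36me3 was 1.22 and 1.13 times. Around Raet1d the H3K36me2 density was 1.20 and 1.28 times its list median and that of H3K36me3 0.959 and 1.104 times, and H3K27me3 there reached 1.68 and 3.31 times. The Raet1 genes are close copies of each other, so reads may be divided among them. The part of copy number in these regions was not tested. Without both regions 2.80% of the H3K36me2 length in Setd5+/- cells lay inside H3K36me3, against 3.31% with them.

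A gene was taken to carry a mark when islands covered at least 25% of its span. In Setd5+/- cells 88 genes (0.659% of the 13356) carried H3K36me2 and 4905 (36.7%) carried H3K36me3, and in wild type 174 (1.3%) and 4852 (36.3%) did. H3K36me2 alone was found on 65 genes (0.487%) in Setd5+/- cells and 113 (0.846%) in wild type. Both marks were found on 23 genes (0.172%) and 61 genes (0.457%). H3K36me3 alone was found on 4882 (36.6%) and 4791 (35.9%), and neither on 8386 (62.8%) and 8391 (62.8%). With the genotypes cut to equal covered length by keeping the densest wild-type islands, the wild-type counts were 60 genes with H3K36me2 alone and 30 with both. These were close to those of Setd5+/- cells, and the parts of covered length and of island density in this cannot be told apart. With the mark required over 50% of the gene, both marks were found on 5 genes in Setd5+/- cells and 3 in wild type, the reverse order.

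Genes with H3K36me2 were longer than genes with H3K36me3 alone. The median length with H3K36me2 alone was 43.0 kb in Setd5+/- cells and 62.2 kb in wild type, and with both marks it was 59.1 and 49.2 kb. It was 26.7 and 26.5 kb with H3K36me3 alone and 24.2 kb with neither in both genotypes, beside 25.5 kb over all genes. Genes over 100 kb made up 29.2% and 37.2% of those with H3K36me2 alone, 30.4% and 21.3% of those with both, 8.44% and 8.10% of those with H3K36me3 alone and 14.0% of all. Among the 761 genes over 200 kb, H3K36me2 alone was found on 8 in Setd5+/- cells and 27 in wild type, and H3K36me3 alone on 65 and 59. H3K36me3 alone was most frequent between 20 and 50 kb, at 45.4% of those genes in Setd5+/- cells and 44.0% in wild type. The order of the lengths depends on the coverage required. Over genes covered by at least 50%, the median length with H3K36me2 alone was 14.3 kb in Setd5+/- cells and 12.3 kb in wild type.

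**Figure D2:**
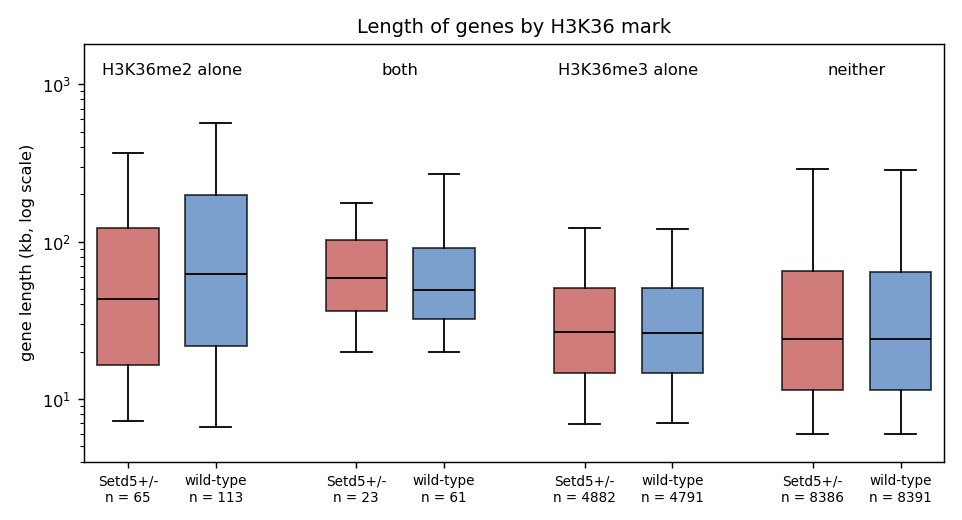
Length in kb (log scale) of protein-coding genes by the H3K36 mark over at least 25% of their span, in Setd5+/- (red) and wild-type (blue) cells; boxes give the quartiles with the median as a line, whiskers the 5th and 95th percentiles. The boxes of genes with H3K36me2 alone or with both marks reach higher than those of genes with H3K36me3 alone, whose medians are 26.7 and 26.5 kb.

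Of the 5 longest genes with H3K36me2 alone in each genotype, Cdkal1 was in both sets. The 5 longest in Setd5+/- cells were Cdkal1, which modifies transfer RNA, with 44.4% covered, Sema6d, a semaphorin of axon guidance, with 29.4%, the endosomal ion exchanger gene Slc9a9 with 29.1%, the muscarinic receptor gene Chrm3 with 26.9% and Btbd9 with 36.7%. Sema6d, Slc9a9 and Btbd9 also carried H3K36me2 alone in wild type, with 35.0%, 34.2% and 40.2%, and Chrm3 had 13.3% there. In wild type the 5 longest were the neuroligin gene Nlgn1, the protocadherin gene Pcdh9, the RNA-binding protein gene Celf2, the transcription factor gene Zbtb20 and Cdkal1, with 36%, 26.1%, 32.7%, 42.2% and 37.4% covered. Nlgn1, Pcdh9, Celf2 and Zbtb20 had 17.6%, 13.6%, 11.3% and 20.2% in Setd5+/- cells and so lay below the threshold there without being free of the mark. H3K36me3 covered 0% of Nlgn1 in Setd5+/- cells, against 1.5% in wild type.

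The longest genes with H3K36me3 alone kept that class in both genotypes, except for Npas3. Nav2, a neuron navigator gene, had 34.1% H3K36me3 in Setd5+/- cells and 46.3% in wild type. Ank2, which encodes an ankyrin, had 32.1% and 31.4%. The glutamate receptor gene Grm5 had 37.0% and 40.2%, with 13.4% and 18.4% under H3K36me2. The adhesion receptor gene Adgrv1 had 41.9% and 30.8%, and the nesprin gene Syne1, the 5th longest in wild type, had 43.7% and 38.9%. Npas3 was the longest of this class in Setd5+/- cells, with 21.3% H3K36me2 and 51.9% H3K36me3, against 37.6% and 54.9% in wild type. Its sequence under both marks was nevertheless longer in Setd5+/- cells, 156.0 kb against 144.8 kb in wild type.

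Genes with both marks held H3K36me2 towards their start and H3K36me3 towards their end. The centre of the H3K36me2 coverage lay nearer the start than that of H3K36me3 in 19 of the 22 Setd5+/- genes of known strand and in 42 of 49 in wild type. The median centre was 37.9% of the way along the gene for H3K36me2 and 61.9% for H3K36me3 in Setd5+/- cells, and 31.2% and 65.3% in wild type. H3K36me2 in Setd5+/- cells covered a mean of 54.6% of the first 10% of these genes, 67.5% of the stretch from 30% to 40% and 22.96% of the last 10%, against 36.1%, 69.7% and 8.73% in wild type. H3K36me3 covered 22.1%, 43.8% and 80.8% of the same stretches in Setd5+/- cells and 23.5%, 37.5% and 88.7% in wild type. Genes with H3K36me3 alone had it on 13.8% of the first 10% in Setd5+/- cells and 26.3% in wild type, where it was above the 23.5% of genes with both marks. From 30% to 40% of the way they had 66.7% in Setd5+/- cells and 69.5% in wild type, against 43.8% and 37.5% in genes with both marks. In genes with H3K36me2 alone, H3K36me2 covered 51.6% of the first 10%, 62.1% from 30% to 40% and 33.45% of the last 10% in Setd5+/- cells. In wild type these values were 42.6%, 52.7% and 32.6%. Less H3K36me2 in the last 10% than in the first was therefore not particular to genes with both marks. In genes with both marks, the H3K36me2 centre was not nearer the start for Glo1, Chmp4b and Rbm12 in Setd5+/- cells. In wild type this was so for Cpsf6, Npas3, Cwc27, Glo1, Ola1, Lrrn1 and Mrpl48. The centres were equal, not reversed, for Rbm12 in Setd5+/- cells (56.92%) and for Glo1 in wild type (50.0%).

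**Figure D3:**
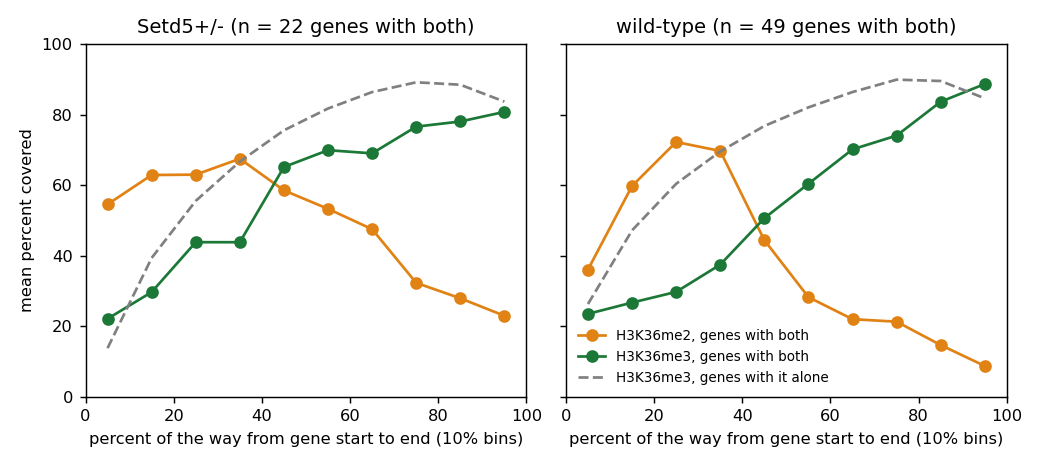
Mean percent covered in bins of 10% of the gene length, from start to end, by H3K36me2 (orange) and H3K36me3 (green) in genes with both marks, in Setd5+/- (left, 22 genes) and wild-type (right, 49 genes) cells; the dashed grey line is H3K36me3 in genes that carry it alone. The curves of the marks cross near the middle of the gene in both genotypes.

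Single pairs of neighbouring islands were also compared, where an even division of the start side would give 50%. Of the adjacent pairs that lay on a single gene of known strand, H3K36me2 was on the start side in 38 of 56 (67.9%) in Setd5+/- cells and 102 of 150 (68.0%) in wild type. Of the overlapping pairs it was in 45 of 78 (57.7%) and 123 of 199 (61.8%), nearer to an even division. The differences from 50% were not tested. Adjacent islands also tended to share a gene, in 66.7% of pairs in Setd5+/- cells and 74.1% in wild type, and overlapping pairs did so in 92.3% and 95.8%.

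The longest genes with both marks in Setd5+/- cells were Dip2c, Tcf12, which encodes a helix-loop-helix factor, the endocytosis gene Fchsd2, the calcium sensor gene Stim2, the corepressor gene Cbfa2t2, the zinc finger and homeobox gene Zhx3, Trim44, the RNA-binding protein gene Raly, Iftap, and the translation regulator gene Cpeb4. In wild type they included Npas3, the formin gene Fmnl2, Tcf12, the nuclear receptor coactivator gene Ncoa1, the synaptic scaffold gene Dlg1, the spliceosome gene Cwc27, the kinase genes Dclk2 and Dyrk1a, and the ATPase gene Ola1. Tcf12 (chr9:71844252-72111893) had 26.3% H3K36me2 and 37.6% H3K36me3 in Setd5+/- cells, against 25.1% and 28.9% in wild type. Dyrk1a (chr16:94569947-94695519) had 13.4% and 38.5% in Setd5+/- cells, against 44.0% and 35.7% in wild type.

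Only 6 genes carried both marks in both genotypes, namely Raet1d, Glo1, Trim44, Zhx3, Tcf12 and Vapa, the last encoding a protein of membrane contact sites. Zhx3 (chr2:160770447-160872990) had 29.1% H3K36me2 and 37.4% H3K36me3 in Setd5+/- cells and 25.7% and 39.7% in wild type. Trim44 (chr2:102300119-102400900) had 70.6% and 35.6% in Setd5+/- cells, and 42.9% and 48.3% in wild type. Several genes lay close to the limit of 25%. In Setd5+/- cells Dip2c and Bicd2 were just inside, with 25.9% and 26.0% for the mark that covered less, and Atp10a and Slain2 just outside, both with 24.8%. In wild type Tcf12 was just inside with 25.1%, Msantd2 and Eea1 just outside with 24.9% and 24.4%, and Setd5 itself at 24.2%.

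Exchange of a mark for the other between genotypes was rare. Of the 113 genes with H3K36me2 alone in wild type, 84 had neither mark in Setd5+/- cells, 23 kept H3K36me2 alone, 1 had both and 5 had H3K36me3 alone. The 84, the 1 and the 5 are 0.629%, 0.00749% and 0.0374% of all 13356 genes. The 6 with H3K36me3 in Setd5+/- cells, alone or with H3K36me2, make up 5.31% of their class. The same share was 6.15% (516 of 8391) for genes with neither mark in wild type, 85.2% (52 of 61) for genes with both and 90.4% for genes with H3K36me3 alone. Of the genes with neither mark in wild type, 513 (3.84% of all genes) had H3K36me3 alone in Setd5+/- cells, 42 (0.314%) had H3K36me2 alone and 3 (0.0225%) had both. None of the 4791 genes with H3K36me3 alone in wild type (0.0% of all genes tested) had H3K36me2 alone in Setd5+/- cells, a count of 0 that allows a share of up to 0.0626% of them by counting error alone, with neighbouring genes not independent. This count was 8 with any overlap taken as a mark, and 1 among denser islands or with all 19 autosomes. Of these 4791, 4318 kept H3K36me3 alone, 460 (3.44% of all genes) had neither and 13 (0.0973%) had both. The count of 5 with H3K36me3 alone in Setd5+/- cells and H3K36me2 alone in wild type was 22 with any overlap, and 2 at 50% of the gene, at equal covered length or among denser islands.

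Genes with both marks in wild type mostly had H3K36me3 alone in Setd5+/- cells. This was so for 46 of 61, which is 0.344% of all genes, while 6 kept both, 9 (0.0674%) had neither and 0 had H3K36me2 alone. Among the 46, Dlg1 had 0% H3K36me2 and 33.9% H3K36me3 in Setd5+/- cells, against 25.9% and 41.8% in wild type. Dclk2 had 0% and 61.3%, against 32.6% and 69.0% in wild type. In the ubiquitin enzyme gene Ube2d3 the values were 0% and 88.8%, against 45.4% and 100% in wild type. H3K36me3 was retained on 80.2% of its wild-type length in these 46 genes. Of their 891.8 kb under H3K36me2 alone in wild type, 191.2 kb (21.4%) carried H3K36me3 in Setd5+/- cells, and of their unmarked sequence 18.03% did. These 46 genes were chosen for their H3K36me3 in Setd5+/- cells, so these shares are a description. Over all 61 genes the 3 shares were 74.2%, 17.5% and 11.3%. The count of 46 depends on how much of a gene and how much sequence is counted. It was 20 of 30 at equal covered length, 9 of 13 among denser islands, 1 of 3 at 50% of the gene and 288 of 468 with any overlap. The 61 genes were chosen for both marks in wild type. Chosen in Setd5+/- cells instead, 13 of the 23 genes with both marks had H3K36me3 alone in wild type.

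**Figure D4:**
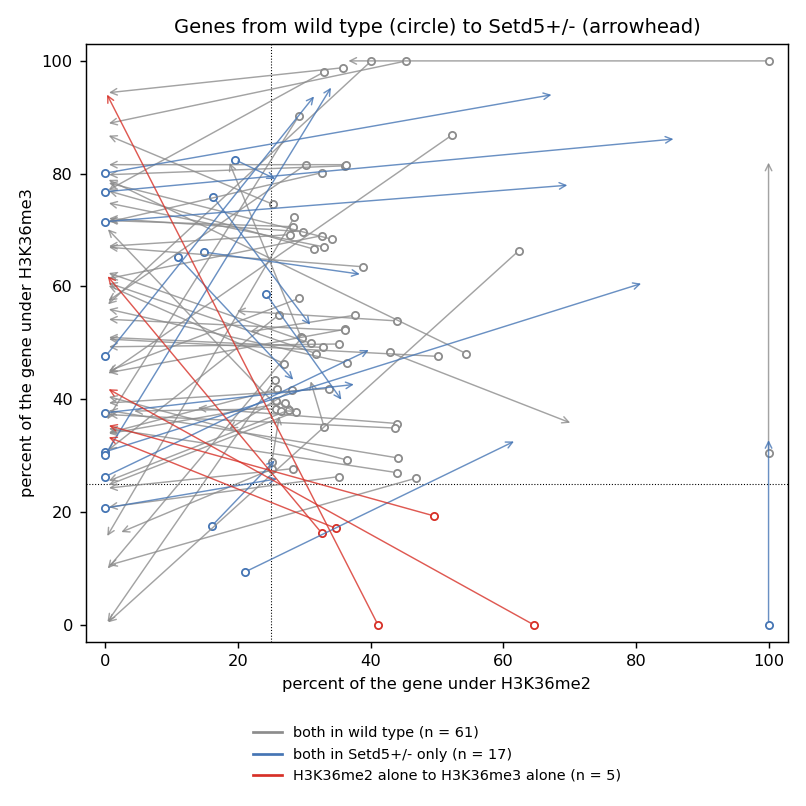
Percent of the gene under H3K36me2 (x axis) and H3K36me3 (y axis), drawn as an arrow that ends at the Setd5+/- value and starts, at a circle, at the wild-type value; dotted lines mark 25%. Of the 61 genes with both marks in wild type (grey) most arrows end at 0% H3K36me2, the 17 genes with both marks only in Setd5+/- cells (blue) run to the right except Raet1e, which runs straight up at 100% H3K36me2, and the 5 red arrows are the genes with H3K36me3 alone in Setd5+/- cells and H3K36me2 alone in wild type.

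The 5 genes with H3K36me3 alone in Setd5+/- cells and H3K36me2 alone in wild type were Rfx3, Rap1a, Plod2, Socs6 and the predicted gene LOC115488671. Rfx3 (chr19:27761721-28014669), a transcription factor gene of cilia, had 0% H3K36me2 and 33.5% H3K36me3 in Setd5+/- cells, against 34.8% and 17.1% in wild type. Its 7 Setd5+/- H3K36me3 islands had between 11.1 and 16.8 reads per kb, while wild type had 6 H3K36me2 islands of 14.0 to 15.8 and 3 H3K36me3 islands of 8.81 to 11.1 reads per kb. Of its sequence under H3K36me2 alone in wild type, 33.0% carried H3K36me3 in Setd5+/- cells, against 25.5% of its unmarked sequence. Rfx3 therefore held some H3K36me3 in both genotypes, on either side of the threshold of 25%, while H3K36me2 covered 0% of it in Setd5+/- cells.

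Rap1a (chr3:105727260-105801394), the gene of a small GTPase, had 0% and 35.5% in Setd5+/- cells, against 49.6% and 19.3% in wild type. Only 8.70% of its sequence under H3K36me2 alone in wild type carried H3K36me3 in Setd5+/- cells, against 38.3% of its unmarked sequence. A single H3K36me3 island of 28.8 kb and 424 reads lay on it in Setd5+/- cells, against 1 of 17.6 kb and 216 reads in wild type. Plod2 (chr9:92539636-92608428), which encodes a collagen lysyl hydroxylase, had 0% and 62.3% in Setd5+/- cells, against 32.6% and 16.3% in wild type. Its H3K36me3 island was 44.8 kb with 661 reads in Setd5+/- cells and 11.2 kb with 98 reads in wild type. For Plod2 50.0% of the sequence under H3K36me2 alone in wild type carried H3K36me3 in Setd5+/- cells, against 56.8% of its unmarked sequence.

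Socs6 (chr18:88865169-88894364), a gene of the cytokine signalling suppressors, had the largest change in H3K36me3 of the 5. It had 0% H3K36me2 and 94.6% H3K36me3 in Setd5+/- cells, against 41.1% and 0% in wild type. A single H3K36me3 island of 28.0 kb and 399 reads lay over it in Setd5+/- cells, and a single H3K36me2 island of 12.0 kb and 174 reads in wild type. Of the sequence under H3K36me2 in wild type 93.3% carried H3K36me3 in Setd5+/- cells, as did 95.6% of its unmarked sequence. LOC115488671 (chr16:11242230-11253636) had 0% and 42.1%, against 64.6% and 0% in wild type, and lies inside Gspt1, the gene of a translation termination factor, so its islands cannot be told apart from those of Gspt1. Gspt1 had 0% and 77.1% in Setd5+/- cells, against 31.5% and 66.6% in wild type. Summed over the 5 genes, 54.4 of 157.0 kb under H3K36me2 alone in wild type (34.7%) carried H3K36me3 in Setd5+/- cells, and 38.7% of their unmarked sequence did. These genes were chosen for their H3K36me3 in Setd5+/- cells, so both shares are a description.

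Base by base, sequence under H3K36me2 alone in wild type carried H3K36me3 in Setd5+/- cells about as often as sequence that was unmarked. Of the 52.9 Mb under H3K36me2 alone in wild type, 76.9% carried neither mark in Setd5+/- cells, 21.4% kept H3K36me2 alone and 1.67% carried H3K36me3, against 1.55% of unmarked sequence. Within genes the share with H3K36me3 was 3.76%, against 3.87% of unmarked sequence. Sequence under H3K36me3 alone in wild type kept it alone over 79.1% of its length, and 0.471% of it carried H3K36me2, against 1.19% of unmarked sequence. Of the 2.09 Mb under both marks in wild type, 11.04% carried both in Setd5+/- cells, 4.60% H3K36me2 alone, 38.1% H3K36me3 alone and 46.3% neither. Taken from the side of Setd5+/- cells, 64.0% of the sequence under H3K36me2 alone was unmarked in wild type, 34.9% was under H3K36me2 alone and 0.849% under H3K36me3 alone.

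**Figure D5:**
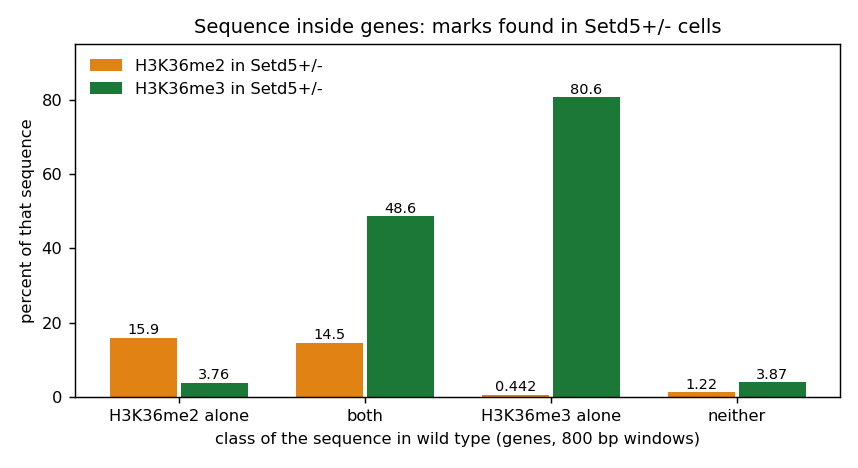
Percent of genic sequence under H3K36me2 (orange) and H3K36me3 (green) in Setd5+/- cells, by the class of that sequence in wild type. The green bars for sequence under H3K36me2 alone (3.76%) and neither mark (3.87%) are of similar height, and the orange bar for H3K36me3 alone (0.442%) is the lowest.

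The 17 genes with both marks only in Setd5+/- cells included a cluster on chromosome 2. In a segment of 6 Mb, picked after its values were seen, Cbfa2t2, Raly, Chmp4b, Cpne1, Rbm12 and Manbal had both marks in Setd5+/- cells and H3K36me3 alone in wild type. Cpne1 and Rbm12 overlap in the annotation, so they share islands. Raly (chr2:154790920-154871010) had 81.3% H3K36me2 and 60.7% H3K36me3 in Setd5+/- cells, against 0% and 30.7% in wild type. Cbfa2t2 (chr2:154436098-154539356) had 40.2% and 49.0%, against 0% and 26.3% in wild type. H3K36me2 covered 324.8 kb of the segment in 14 islands in Setd5+/- cells and 0 kb in wild type.

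The other marks were denser in this segment in Setd5+/- cells. The median log2 ratio of reads per kb, Setd5+/- over wild type, in islands called in both genotypes was 0.11 for H3K36me3, 0.19 for H3K4me3, 0.16 for H3K27ac, 0.23 for H3K4me1 and 0.16 for H3K27me3. On the remainder of chromosome 2 it lay between 0.00 and 0.03 for these marks, and no H3K36me2 island in the segment was called in both. The part of copy number in these values was not tested. The 6 genes are 6 of the 13 that had both marks in Setd5+/- cells and H3K36me3 alone in wild type, and 17 of the 23 Setd5+/- genes with both marks lay elsewhere.

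Genes chosen as a list of possible H3K36 methyltransferases were themselves under H3K36me3. Whether each product, that of Setd3 included, acts on this residue was not checked. All 7 measured genes of the list (Setd2, Nsd1, Nsd2, Nsd3, Ash1l, Setd3 and Setd5) carried it in both genotypes, against 36.7% of all genes in Setd5+/- cells and 36.3% in wild type. None of them reached 25% H3K36me2. Those with some H3K36me2 in wild type and 0% in Setd5+/- cells were Setd5 with 24.2%, Nsd3 with 12.2% and Ash1l with 6.2%. Demethylase and reader genes carried H3K36me3 in 9 of 14 in both genotypes and H3K36me2 in none. All 9 genes of the HDAC3-NCoR and PAF1 complexes carried H3K36me3 in both. Splicing and polymerase genes carried it in 17 of 17 in Setd5+/- cells and 16 of 17 in wild type, cell cycle genes in 18 of 20 in both, and ribosomal protein genes in 14 of 20 and 13 of 20. H3K36me2 reached 25% in none of these, but over all genes it did so in only 0.659% in Setd5+/- cells and 1.3% in wild type, so lists of this size would hold few or none at that rate.

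Most genes of axon guidance and adhesion carried neither mark, as did 62.8% of all genes in each genotype. Only 1 of 24 carried H3K36me3 in either genotype, against 36.7% of all genes in Setd5+/- cells and 36.3% in wild type. It was Cdh2, with 26.5% in Setd5+/- cells and 28.3% in wild type. Among genes over 200 kb, H3K36me3 alone was found on 8.54% in Setd5+/- cells and 7.75% in wild type. Some H3K36me2 lay on 7 of the 24 in Setd5+/- cells and 14 in wild type, and it reached 25% in 0 and 2, beside 0.659% and 1.3% of all genes. The 2 were the semaphorin gene Sema3a, with 3.8% in Setd5+/- cells and 35.3% in wild type, and Flrt2, an adhesion protein gene, with 0% and 25.7%. Neuronal markers carried H3K36me2 in 0 of 10 in Setd5+/- cells and 2 of 10 in wild type, among them the growth cone gene Gap43 with 20.8% and 55.6%. Astrocyte and oligodendrocyte markers carried it in 0 of 8 and 1 of 8, the astrocyte water channel gene Aqp4 with 24.9% and 32.3%. Over all genes, 430 of 13356 in Setd5+/- cells and 806 in wild type had some H3K36me2. Long genes are more likely to hold some. Genes with any H3K36me2 and no H3K36me3 had a median length of 189.0 kb in Setd5+/- cells and 191.0 kb in wild type, against 25.5 kb over all genes. The axon guidance and adhesion list holds very long genes, such as Robo2 (1555 kb) and Lrrc4c (1314 kb), and was not matched for length.

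Among the gene families counted, H3K36me2 was most frequent in the placental prolactin genes on chromosome 13, which are close copies of each other. It was carried by 9 of 25 in Setd5+/- cells and 12 of 25 in wild type, and H3K36me3 by 0 of 25 in both. Prl7a2 and Prl3b1 were covered over 100% in both genotypes, Prl8a8 had 100% in Setd5+/- cells and 0% in wild type, and Prl6a1 and Prl7b1 had 0% in Setd5+/- cells and 100% in wild type. Zinc finger genes with the prefix Zfp carried H3K36me3 in 183 of 329 and 178 of 329, and H3K36me2 in 1 and 4, or 0.304% and 1.22%. Over all genes H3K36me3 was carried by 36.7% and 36.3% and H3K36me2 by 0.659% and 1.3%, so the H3K36me2 counts of the zinc finger, vomeronasal and solute carrier genes lay near that share. None of 69 olfactory receptor genes carried either mark. Vomeronasal receptor genes carried H3K36me2 in 2 of 131 and 3 of 131. Solute carrier genes carried H3K36me2 in 1 and 3 of 291 and H3K36me3 in 64 and 67.

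Marks of active promoters differed between the classes. A gene end here is either boundary of the gene, that of its start or the opposite one, without regard to strand, so the values are not of promoters only. H3K4me3, the promoter mark, lay within 1 kb of a gene end in 27 of 65 genes with H3K36me2 alone (41.5%) in Setd5+/- cells and 56 of 113 (49.6%) in wild type. It did so for 21 of 23 and 57 of 61 genes with both marks, for 94.5% and 94.4% with H3K36me3 alone, and for 67.0% and 68.8% of all genes. H3K27ac, a mark of active promoters and enhancers, was found at an end of 29.2% and 39.8% of genes with H3K36me2 alone, 74.6% and 80.7% with H3K36me3 alone and 40.3% and 43.9% of all. Genes with both marks had it in 18 of 23 and 51 of 61. By these readouts, which the classes did not use, genes with both marks had values near those of genes with H3K36me3 alone. Genes with H3K36me2 alone had values below those of all genes. Against genes with neither mark they had less H3K4me3, which lay at an end of 51.1% and 54.3% of those, and more H3K27ac, found at 20.3% and 22.6%.

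Enhancer marks covered more of the H3K36me2 than of the H3K36me3 sequence. H3K4me1 lay on 6.41% of the H3K36me2 length in Setd5+/- cells and 10.1% in wild type, on 2.71% and 5.46% of the H3K36me3 length, and on 1.66% and 2.73% of the span. H3K27ac lay on 4.57% and 5.93% of the H3K36me2 length, 2.19% and 3.71% of the H3K36me3 length and 1.41% and 1.48% of the span. In the sequence under both marks it reached 13.12% and 13.04%. H3K27me3, the Polycomb mark, lay on 0.155% and 0.135% of the H3K36me2 length and 0.193% and 0.110% of the H3K36me3 length, against 1.41% and 1.78% of the span. Both H3K36 marks thus held little H3K27me3 in either genotype.

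SETD5-V5, measured in wild-type cells only, lay on H3K36me3 and hardly on H3K36me2. Its islands covered 1.05% of the H3K36me2 length, 46.2% of the H3K36me3 length, 15.3% of the sequence under both marks and 4.30% of the span. Of the 3643 H3K36me2 islands 80 met a SETD5-V5 island (2.196%). Within 1 kb of either boundary of the gene, SETD5-V5 was found in 9 of 113 genes with H3K36me2 alone (7.96%), 34 of 61 with both marks, 45.4% of genes with H3K36me3 alone, 4.21% of unmarked genes and 19.2% of all. It covered a mean of 1.55% of the bodies of genes with H3K36me2 alone, 31.1% of those with both and 36.4% of those with H3K36me3 alone.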

How the data were processed

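ChIP-seq islands of H3K36me2 and H3K36me3 in Setd5+/- and wild-type neural stem cells were compared, with 1 library per group, together with 9 other island lists. Alignment to GRCm38 with Bowtie2 2.2.3 and island calling with SICER 1.1 are named per the submitters' processing notes, with FastQC for read quality. The H3K36 lists used windows of 800 bp, gaps of 2400 bp and a false discovery rate set to 0.01, per the file headers. The authors deposited a whole number for every island, taken here, from its values, as unnormalised counts of reads. Whether input served as control is not given in the sources used here. Library totals are unknown, so only reads inside islands are given, and Wilson intervals cover counting error only.

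Python 3.11.15 with numpy 2.4.6, pandas 2.3.3, scipy 1.17.1 and matplotlib 3.10.9 was used. Genes and promoters came from RefSeq (GRCm38.p6), and strand from its promoter table. Overlap needed 1 bp, and adjacency a gap under 10 kb. Named genes were Setd5, genes that exchanged the marks, the 10 longest genes with both marks, the 5 longest with either alone, genes under the 5 longest shared stretches, the 5 widest gene-free H3K36me2 islands, and list members under H3K36me2. Predicted genes were skipped unless a count of 5 or fewer held them, and genes named beyond this rule were chosen after their values were seen. A gene that the rule selects is not reported here. The members and lists were chosen with earlier results of these data known. Alternatives changed the coverage, gap, gene length, island density, covered length and chromosomes. The steps were tested on simulated islands.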

Additional observations from a re-analysis of the deposited data

Results flagged for a closer look

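A contrast within each genotype had opposite signs in the genotypes in 5 cases, and with 1 library per group none of these differences was tested. H3K4me1 was counted within 1 kb of either boundary of a gene, called a gene end. It was 29.4 percentage points more frequent in genes with both marks than in genes with H3K36me3 alone in Setd5+/- cells. The same difference was -11.5 in wild type. Between genes with H3K36me2 alone and genes with H3K36me3 alone it was 3.69 in Setd5+/- cells and -20.5 in wild type. Over all genes H3K4me1 lay at an end of 16.5% in Setd5+/- cells and 40.5% in wild type. H3K27me3 at a gene end differed by 3.06 points between genes with both marks and genes with H3K36me3 alone in Setd5+/- cells and by -0.198 in wild type, where 1 gene with both marks had it in either genotype. The percent of covered length with H3K4me3 was 0.42 points higher for H3K36me2 than for H3K36me3 in Setd5+/- cells, and the difference was -1.12 in wild type. The same difference for H3K27me3 was -0.0372 in Setd5+/- cells and 0.025 in wild type.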

How the results depend on the processing

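No paired analysis was possible because each group has 1 library and the labels carry no replicate numbers. Of 218 alternative values of 29 results, 144 stayed within the limits set (the Wilson interval for island shares, 1.5 times for counts, lengths and covered shares), 70 moved and 4 changed sign, and the causes were not tested.

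With all 19 autosomes, in Setd5+/- cells 19.2% of H3K36me2 islands overlapped H3K36me3, 5.62% were adjacent, 14.0% of the H3K36me2 length was shared and 9.42% of H3K36me3 islands overlapped H3K36me2. There, 294 genes had H3K36me2 alone and 331 had both, the difference in genes with both was 251 in place of -38, that in overlapping islands 11.9 percentage points in place of -1.48, and 1 gene had H3K36me2 alone in Setd5+/- cells and H3K36me3 alone in wild type.

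The density cut was the median of the whole list, with the chromosomes left out included, and was stricter for Setd5+/- H3K36me2. Among islands at or above it, 6.25% of the H3K36me2 length was shared in Setd5+/- cells and 1.31% in wild type. Of wild-type H3K36me2 islands 2.17% overlapped H3K36me3, and the difference in overlap turned to 2.29. Of H3K36me3 islands 0.417% and 1.16% overlapped H3K36me2. Genes with H3K36me2 alone numbered 11 and 49, with H3K36me3 alone 2956 and 3002, and with both 3 and 13, a difference of -10. The median length was 36.6 kb for H3K36me2 alone in wild type and 31.2 and 32.4 kb for both. H3K36me3 alone in Setd5+/- cells was found on 2 genes with H3K36me2 alone in wild type and on 9 with both there, and 1 gene had H3K36me2 alone in Setd5+/- cells and H3K36me3 alone in wild type.

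Equal covered length was reached by keeping the densest wild-type islands of each mark. The wild-type values were then 5.70% of H3K36me2 islands overlapping, 2.12% of H3K36me3 islands overlapping, 60 genes with H3K36me2 alone of median length 41.4 kb and 30 with both. The differences were -7 genes with both and -0.397 percentage points, and H3K36me3 alone in Setd5+/- cells was found on 2 genes with H3K36me2 alone in wild type and on 20 with both there.

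When any overlap marked a gene, H3K36me2 alone was found on 205 genes in Setd5+/- cells and 338 in wild type, of median length 189.0 and 191.0 kb, and both on 225 and 468, of 177.6 and 143.8 kb, a difference of -243. Then H3K36me3 alone in Setd5+/- cells was found on 22 genes with H3K36me2 alone in wild type and on 288 with both there, and 8 genes had H3K36me2 alone in Setd5+/- cells and H3K36me3 alone in wild type. At 50% of the gene, H3K36me2 alone was found on 24 and 39 genes, of 14.3 and 12.3 kb, and both on 5 and 3, of 36.5 and 19.8 kb, a difference that turned to 2. Then H3K36me3 alone in Setd5+/- cells was found on 2 genes with H3K36me2 alone in wild type and on 1 with both there. Over genes of at least 20 kb, H3K36me3 alone was found on 3050 and 2978 genes, of 42.4 and 42.6 kb, and the median with H3K36me2 alone was 69.0 and 94.2 kb.

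With 50% of the island covered, 2.25% and 3.82% of H3K36me2 islands and 0.690% and 1.36% of H3K36me3 islands overlapped. With a gap under 2.4 kb 0.634% and 1.18% of H3K36me2 islands were adjacent, and under 50 kb 18.1% and 18.7%. Leaving out the chromosome 2 segment, or the Btbd9-Glo1 and Raet1 regions, alternatives chosen after seeing the data, moved no result past these limits, nor did leaving out any autosome in turn for the results it was tried on.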
